A study of Mus musculus with 8 samples.

Results

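The metallothionein genes Mt1, Mt2, Mt3 and Mt4 were followed across 8 mouse gene arrays as 4 of the 22180 genes that the value table measures with a single gene symbol. Members were taken by their platform symbol and each had exactly 1 probe set. Mt3 was chosen by its measured log2 value, which was higher in the knockout group. The arrays were hybridised with amplified complementary DNA of sorted skin cells, in 3 groups. P21_KO holds 4 arrays from mice of 21 days that are B-raf fl/fl and homozygous for another floxed gene. P21_WT holds 2 arrays from mice of 21 days that are B-raf +/+ and wild type for the other gene. P4_WT holds 2 arrays from pups of 4 days with the wild-type genotype of P21_WT. All groups carry TyrCre/°, a Cre recombinase driven by a tyrosinase promoter, and the Z/EG reporter, which turns on green fluorescent protein once Cre has acted, on a mixed C57Bl/6 and 129/Sv background. The floxed strain was on 129/Sv and the Cre and reporter strains on C57Bl/6, so genotype and strain background cannot be told apart. Green cells without surface p75 were collected, which the labels call melanocyte stem cells at 21 days and melanoblasts, the precursors of pigment cells, at 4 days.

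Metallothioneins are small cysteine-rich proteins that hold zinc and copper ions in the cell and buffer them. Mt1 and Mt2 are made in most tissues and are switched on by zinc, by cadmium, by glucocorticoids and by oxidative stress, the metals acting through the transcription factor MTF1 at metal response elements in the promoters. Mt3 is known mainly from brain, where it was described as a growth inhibitory factor of neurons, and Mt4 from stratified squamous epithelia such as epidermis and tongue. In the mouse the 4 genes lie side by side on chromosome 8, in the order Mt4, Mt3, Mt2, Mt1.

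The promoters of the 4 genes are shown because metal response elements are the known route by which zinc acts on Mt1 and Mt2. Each run holds the 250 bases before the annotated start and the first 30 after it, from RefSeq on GRCm38.p6, on the + strand, with matches to the metal response element core in capitals. The letters searched were TGCACNC and TGCGCNC, on both strands, in windows that reach 50 bases past the start.
Mt1, chr8:94178839-94179118: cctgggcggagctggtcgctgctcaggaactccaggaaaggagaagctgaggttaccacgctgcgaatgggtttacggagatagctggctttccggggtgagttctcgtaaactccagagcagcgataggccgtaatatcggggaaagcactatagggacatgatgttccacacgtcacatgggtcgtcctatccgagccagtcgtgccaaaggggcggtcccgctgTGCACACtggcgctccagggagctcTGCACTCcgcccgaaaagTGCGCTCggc
Mt2, chr8:94172368-94172647: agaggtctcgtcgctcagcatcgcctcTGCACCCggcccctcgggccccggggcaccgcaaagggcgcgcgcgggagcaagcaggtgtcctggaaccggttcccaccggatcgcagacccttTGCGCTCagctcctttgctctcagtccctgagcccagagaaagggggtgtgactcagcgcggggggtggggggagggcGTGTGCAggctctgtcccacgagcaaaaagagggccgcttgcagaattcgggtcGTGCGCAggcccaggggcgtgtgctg
Mt3, chr8:94152357-94152636: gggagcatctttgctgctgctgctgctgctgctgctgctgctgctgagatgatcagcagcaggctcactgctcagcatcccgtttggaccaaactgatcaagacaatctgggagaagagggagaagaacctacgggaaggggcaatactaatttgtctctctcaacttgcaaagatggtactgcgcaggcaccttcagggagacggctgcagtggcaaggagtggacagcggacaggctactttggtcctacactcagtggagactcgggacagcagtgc
Mt4, chr8:94136954-94137233: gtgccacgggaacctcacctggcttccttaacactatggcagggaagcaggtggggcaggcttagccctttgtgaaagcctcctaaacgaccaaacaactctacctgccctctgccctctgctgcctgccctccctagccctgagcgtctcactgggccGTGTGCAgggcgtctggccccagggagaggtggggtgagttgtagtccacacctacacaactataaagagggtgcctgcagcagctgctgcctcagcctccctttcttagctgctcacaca
The Mt2 window held 4 matches and the Mt1 window 3, against 1 in the Mt3 window, which lies 27 to 33 bases after the start and past the printed run, and 1 in the Mt4 window. Of 32851 windows of the same length in the table, 25.7% held at least 1 match, 1.97% at least 3 and 0.517% at least 4. The antioxidant response element core, TGACNNNGC on either strand, which shares no base with these matches, was found once in the Mt2 window and in 12.4% of all windows. A match is a description of the letters and not a measured binding site. The counts and positions depend on the annotated start. Whether transcripts begin there was not tested, and elements outside the windows were not searched.

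**Figure D1:**
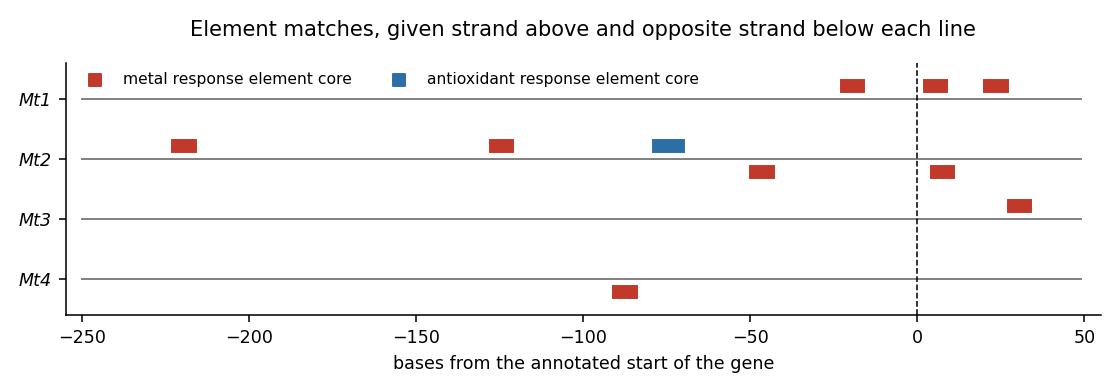
Positions of the element matches in the 4 promoter windows, in bases from the annotated start of the gene (dashed line), with each box 1 match. Within these windows Mt2 has 4 metal response element matches spread out, Mt1 has 3 near the annotated start, and Mt3 and Mt4 have 1 each.

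Values are log2 readings after RMA, a normalization that brings all arrays to one distribution, and they ran from 0.913 to 12.2. The median over genes was 3.34 to 3.40 on the arrays. As a guide to the floor, 95% of 1105 olfactory receptor genes read below 3.33 to 3.69. Most of these genes are assumed to be silent in the sorted cells, which was not tested. Within a group, Pearson's r between arrays was 0.954 to 0.974 across genes. P4_WT replicate 2 stood apart in sex-linked genes, with an Xist value of 8.94 against 1.95 to 2.77 on the other arrays. It also stood apart in the markers of immune cells, whose mean was 5.32 against 2.95 to 3.42 elsewhere, and of endothelial cells (5.15 against 3.12 to 3.37). Of 11 melanocyte markers, 10 read above the olfactory level on all arrays, and Gpr143 did on 7 of 8. Keratinocyte markers did so too for 13 of 14. Braf, a knockout target, averaged 6.26 ± 0.41 in the 4 P21_KO arrays and 6.59 ± 0.85 in the 2 P21_WT arrays (SD). Their ranges overlapped, at 5.66 to 6.57 and 5.99 to 7.20, and the 2 P4_WT arrays averaged 5.90 ± 0.14. The probe set is not known to cover the floxed part.

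Mt3 read higher in stem cells of 21 days than in melanoblasts, and higher again in knockout stem cells, while Mt1 and Mt2 differed little and Mt4 varied between arrays of the same group. Of the 4 genes only Mt3 passed the age test, with a 2.93-fold rise. Limma called 1.61% of all 22180 genes by age in either direction and 0.757% as higher, at a Benjamini-Hochberg adjusted p under 0.05. In bulk samples of sorted cells, fewer cells of a type and less RNA per cell cannot be told apart.

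**Figure D2:**
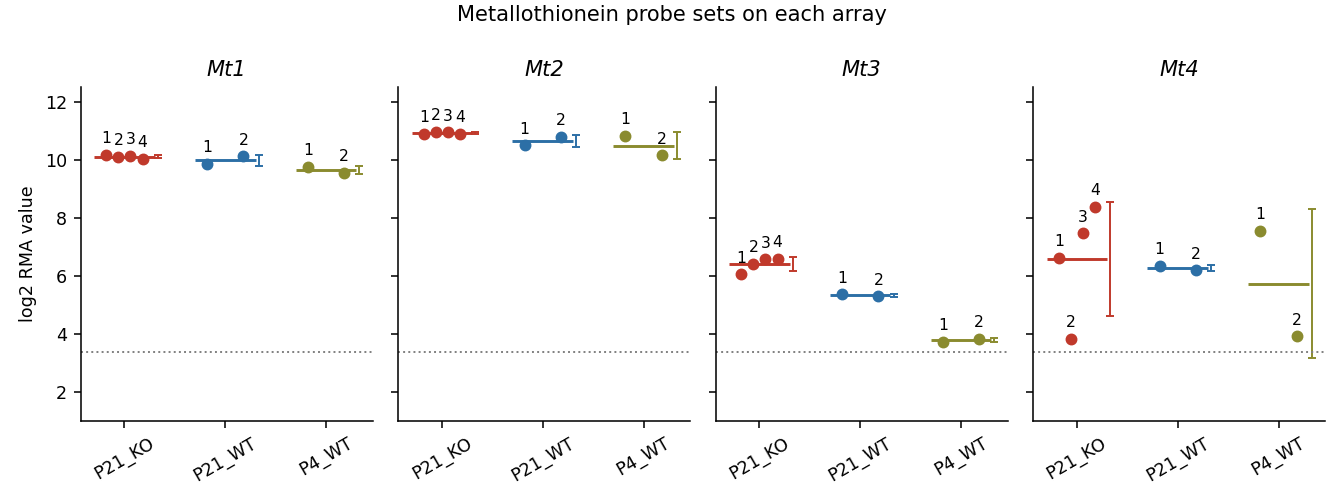
Log2 RMA value of each metallothionein probe set on each array (points, numbered by replicate), with the group mean (line) and SD (bar at its right), for P21_KO (n = 4), P21_WT (n = 2) and P4_WT (n = 2). The dotted line is the median over genes, averaged over arrays. Mt3 steps down through the groups from left to right without overlap, and Mt4 spreads from 3.83 to 8.38 within P21_KO.

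Mt1 encodes one of the 2 broadly expressed, metal-inducible isoforms. It read 10.16, 10.11, 10.13 and 10.04 in P21_KO, 9.86 and 10.12 in P21_WT, and 9.76 and 9.56 in P4_WT. All arrays of 21 days were thus above both P4_WT arrays, and P21_KO and P21_WT overlapped. The age difference was 0.33 ± 0.17 (SE) on the log2 scale, a 1.26-fold value with an interval of 0.964 to 1.64, and did not pass (limma adjusted p = 0.486). Both P21_WT arrays read above both P4_WT arrays in 21.4% of all genes.

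Mt2, the second broadly expressed isoform, read 10.90, 10.97, 10.95 and 10.90 in P21_KO, 10.50 and 10.79 in P21_WT, and 10.82 and 10.15 in P4_WT. The wild-type groups overlapped, and the P4_WT arrays were further apart than the group means. The age difference was 0.16 ± 0.23 (SE), with a 95% interval of -0.37 to 0.69, and did not pass (limma adjusted p = 0.875). It was -0.17 without P4_WT replicate 2. All 4 P21_KO arrays read above both P21_WT arrays, by 0.28 on average, which 7.75% of all genes did. For Mt1 that difference was 0.12, and it was -0.011 without P21_WT replicate 1 and 0.25 without P21_WT replicate 2. Both genotype differences come from the comparison that chose Mt3 and are given without a test.

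Both genes read near the top of the arrays' range. Their largest gap over all arrays was 0.60 for Mt1 and 0.82 for Mt2, against a median of 0.80 over all genes. Within P21_KO the arrays agreed closely, with an SD of 0.05 for Mt1 and 0.03 for Mt2 (n = 4 each), while the 2 P4_WT arrays had an SD of 0.14 for Mt1 and 0.47 for Mt2. P21_KO replicates 2, 3 and 4 carry the same number in the labels, and whether they are independent is not stated.

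Mt3, the isoform best known from neurons, read 6.05, 6.42, 6.57 and 6.58 in P21_KO, 5.36 and 5.29 in P21_WT, and 3.72 and 3.82 in P4_WT. No group overlapped another. Of all genes, 1.7% stepped up in this way by age and again by genotype, a share given for scale, with nothing read from it, since Mt3 was chosen with these values known. The P4_WT mean lay above 97.6% of olfactory receptor genes but above only 56.5% of all genes. The age difference was 1.55 ± 0.21 (SE), a 2.93-fold rise with a 95% interval of 2.10 to 4.08, and passed limma's test (adjusted p = 0.0116). P4_WT values this low may understate the fold, which was not tested. The call needed both P21_WT arrays and the spread of all groups. The adjusted p was 0.0828 without P21_WT replicate 1 and 0.0647 without P21_WT replicate 2. A fit of the 4 wild-type arrays by themselves gave 0.0636. The difference itself was 1.50 to 1.60 whichever array was left out.

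By genotype Mt3 averaged 6.41 ± 0.25 in the 4 P21_KO arrays and 5.32 ± 0.05 in the 2 P21_WT arrays (SD), a difference of 1.08 or 2.12-fold. Mt3 was chosen for this difference, so it is given without a test. In this comparison limma called 0 of 22180 genes (0%), with 1447 at an unadjusted p under 0.05. The labels give 3 of the 4 P21_KO arrays, replicates 2, 3 and 4, the same number, whose meaning is not stated. These 3 were 1.20 above the P21_WT mean on average and P21_KO replicate 1 was 0.73 above it, and the wild-type arrays carry other numbers. The age and genotype comparisons share the P21_WT arrays with opposite sign, so a low reading there would raise the second and lower the first. Set against P4_WT, with age and genotype both different, P21_KO was 2.63 higher in Mt3, or 6.20-fold.

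**Figure D3:**
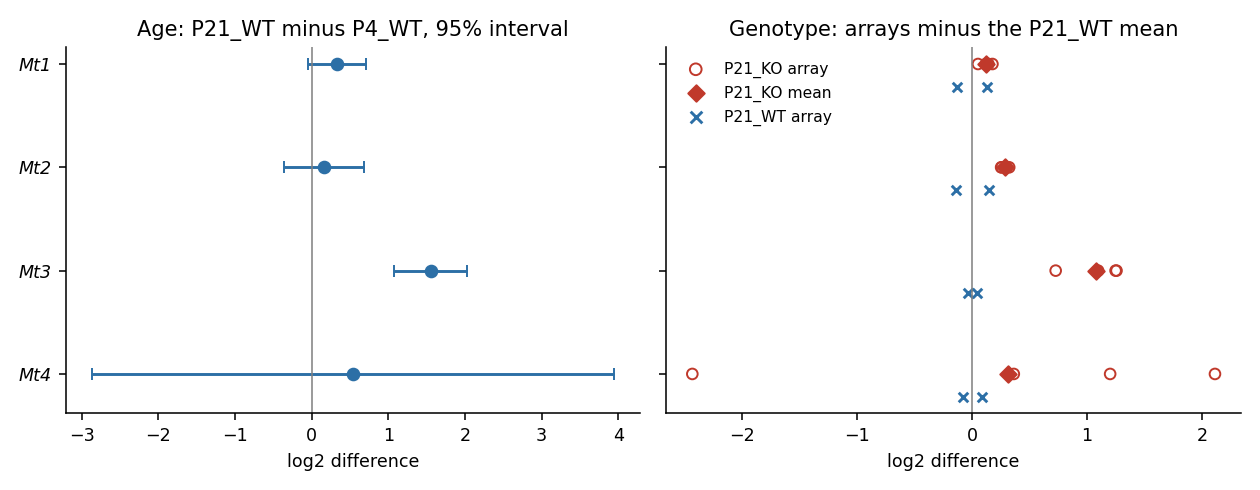
Left, the log2 difference by age (P21_WT minus P4_WT) with limma's 95% interval for each gene. Right, each P21_KO array (open circles), their mean (diamonds) and each P21_WT array (crosses) minus the P21_WT mean. The age interval of Mt3 lies above 0 and those of Mt1, Mt2 and Mt4 include 0, and all 4 P21_KO arrays lie right of the P21_WT arrays for Mt2 and Mt3.

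Marker means also differed between groups, the melanocyte mean opposite to Mt3 in both comparisons and the Schwann cell and glial mean by age only. The mean of the 11 melanocyte markers was 8.16, 7.76, 7.26 and 6.74 in P21_KO, 8.58 and 8.43 in P21_WT, and 9.39 and 9.37 in P4_WT, in ranges that do not overlap. It was lowest where Mt3 was highest: P21_KO replicates 3 and 4 had the highest Mt3 and the lowest marker means, and P4_WT had the lowest Mt3 and the highest marker mean. Within P21_WT, replicate 2 was lower than replicate 1 in both. By age 2 of the 11 melanocyte markers were higher, and 1 was called as lower, against 0.852% of all genes. The mean of the NRF2 and glutathione genes, given below, was also opposite to Mt3, with Pearson's r of -0.957 against -0.937 for the melanocyte mean. The Schwann cell and glial marker mean was 7.29 to 7.67 in P21_KO and 7.44 to 7.50 in P21_WT, against 6.60 to 6.80 in P4_WT. P21_KO and P21_WT thus overlapped, and P21_KO replicate 1 had the highest marker mean but the lowest Mt3 of its group. By age 5 of 11 markers were called as higher, against 0.757% of all genes, and 10 of 11 read above the olfactory level on all arrays. The part of either cell type in the Mt3 values was not tested.

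Mt4, the isoform of stratified epithelia, read 6.63, 3.83, 7.47 and 8.38 in P21_KO, 6.35 and 6.18 in P21_WT, and 7.54 and 3.91 in P4_WT. P21_KO replicate 2 and P4_WT replicate 2 were low and all other arrays stood above 6, so the groups overlapped fully. The range of 4.55 over the arrays, 23.4-fold, was wider than that of 99.7% of all genes. The age difference was 0.54 ± 1.49 (SE), with an interval of -2.87 to 3.95, and did not pass (limma adjusted p = 0.949). It was -1.28 without P4_WT replicate 2 and 2.36 without P4_WT replicate 1. By genotype P21_KO averaged 6.58 ± 1.97 over 4 arrays and P21_WT 6.27 ± 0.12 over 2 (SD). That difference of 0.31 was 1.22 without P21_KO replicate 2, 0.012 without P21_KO replicate 3 and -0.29 without P21_KO replicate 4.

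The 14 keratinocyte markers were set beside Mt4, since epidermis is where Mt4 is known to be made. Their mean was 6.86, 6.70, 6.89 and 7.51 in P21_KO, 7.31 and 7.18 in P21_WT, and 7.00 and 6.15 in P4_WT. The 2 arrays with low Mt4 had the 2 lowest marker means, and P21_KO replicate 4 had the highest of both. The order was not the same throughout, because both P21_WT arrays had more keratinocyte signal but less Mt4 than P21_KO replicate 3. The part of keratinocyte RNA in Mt4 was not tested.

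**Figure D4:**
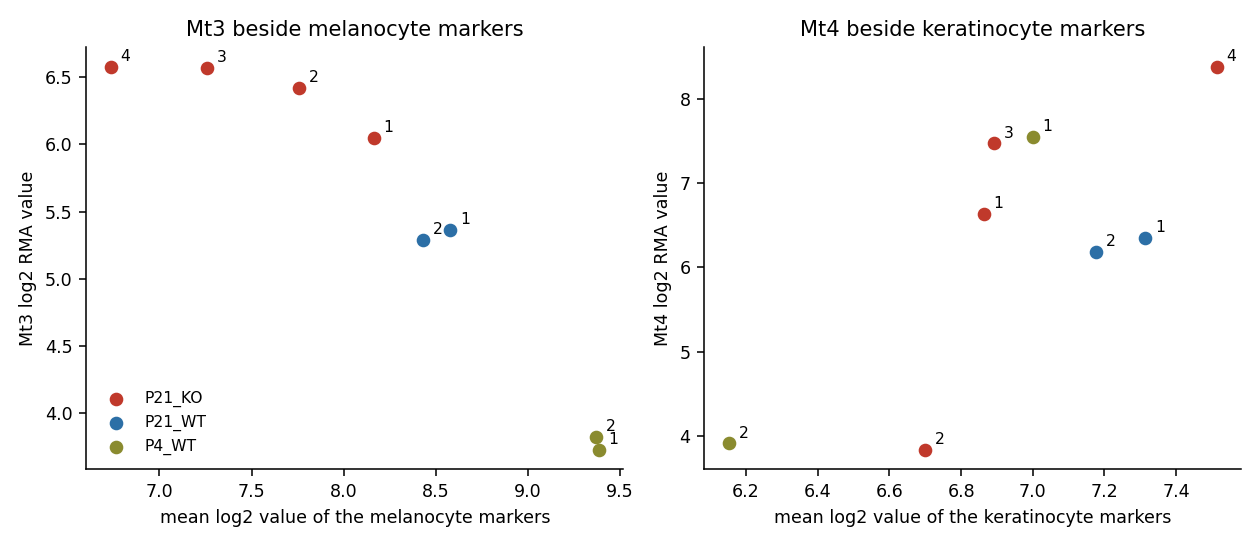
Left, Mt3 against the mean of 11 melanocyte markers, and right, Mt4 against the mean of 14 keratinocyte markers, both in log2 values, with 1 point for each array numbered by replicate. Mt3 is higher in groups with a lower melanocyte mean, but P21_WT replicate 2 is lower than replicate 1 in both. The 2 arrays with Mt4 below 4 have the lowest keratinocyte means.

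Over the 8 arrays Mt1 followed Mt3 and Mt2, with Pearson's r of 0.86 and 0.85, and Mt2 and Mt3 had an r of 0.68. Mt4 had an r of 0.24 to 0.47 with the others. These describe 8 arrays that share their groups and carry no test. The genes most like Mt3 were P2ry2, a receptor for extracellular nucleotides (r = 0.993), Cpeb1, a regulator of messenger RNA polyadenylation (0.992), Azin1, an activator of polyamine synthesis (0.989), Crip2 (0.989) and Cryab, a small heat shock chaperone (0.987). P2ry2 averaged 7.27 in P21_KO, 5.99 in P21_WT and 3.55 in P4_WT, and Cryab 11.18, 10.81 and 9.83 in the same order of groups.

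Mt1 was most like Mras, a small GTPase gene (r = 0.982), the transcriptional repressor gene Bcl6 (0.980), the retinol dehydrogenase gene Rdh5 (0.978), the kinase gene Stk39 (0.975) and Serinc5 (0.974). For Mt2 the nearest were Zfp219 (0.966), Emp2 (0.942), Crlf3 (0.939), Purg (0.935) and Efcc1 (0.925). For Mt4 they were Gng8 (0.892), Chadl (0.889), Ctrcos (0.878), Pxdc1 (0.860) and Cirbp (0.854), the cold-inducible RNA-binding protein gene. Leaving out 1 array kept r above 0.980 for the Mt3 genes and above 0.940 for the Mt1 genes. It fell to 0.754 for Purg with Mt2 and 0.775 for Cirbp with Mt4. The genes were picked for a high r over these same arrays, so these values are a description and no support for the likeness.

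Among the genes beside the cluster, Bbs2 encodes a subunit of the ciliary BBSome complex and lies on the Mt4 side. Like Mt3, Bbs2 stepped up by age and again by genotype without overlap, as 1.7% of all genes did. It read 6.22, 5.95, 5.97 and 5.94 in P21_KO, 5.26 and 5.34 in P21_WT, and 4.48 and 4.27 in P4_WT, and its r with Mt3 was 0.961. Its age rise of 0.93 ± 0.17 (SE) passed (limma adjusted p = 0.0417), but it passed in only 5 of 18 alternatives and not when any 1 array was left out (adjusted p of 0.0517 to 0.171). The next gene out, Ogfod1, a prolyl hydroxylase gene, averaged 4.39 in P21_KO, 4.32 in P21_WT and 4.56 in P4_WT. Nup93, a nuclear pore gene on the Mt1 side, differed the other way, by -0.86 ± 0.21 (SE) with age (limma adjusted p = 0.0967). The remaining 3 of the 6 nearest annotated genes had no reading here.

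The genes that act with metallothioneins were read from 4 lists. Of 23 zinc sensing and transport genes, 0 were called by age in limma, with a median difference of -0.07 against 0.00 over all genes. Limma called 1.61% of all genes, so a list this short with 0 calls is not set apart from all genes. The same holds for the copper and NRF2 lists below. Mtf1, whose product switches on Mt1 and Mt2, averaged 5.22 ± 0.19 in P21_KO, 5.15 ± 0.08 in P21_WT and 4.90 ± 0.34 in P4_WT (SD over 4, 2 and 2 arrays), and its age difference did not pass (limma adjusted p = 0.754). The zinc importer gene Slc39a6 was at -1.29 ± 0.35 (SE) with age and Slc39a13 at 0.89 ± 0.30. The Slc39a13 difference was 0.37 without P21_WT replicate 1 and 1.41 without P21_WT replicate 2. The zinc exporter gene Slc30a1, a known MTF1 target, is on probe sets shared with another gene and is not reported. Of 14 copper genes 0 were called, with a median of -0.17. The copper chaperone gene Cox17 was at -0.54 ± 0.20 (SE) and the transporter gene Slc31a2 at 0.65 ± 0.29. Cox17 was at -0.35 without P21_WT replicate 1, and Slc31a2 at 1.06 without P4_WT replicate 1 and 0.24 without P4_WT replicate 2.

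Of 20 NRF2 and glutathione genes, which answer to oxidants, 0 were called by age, 13 were lower and the median was -0.17. The cystine transporter gene Slc7a11 was at -2.43 ± 0.57 (SE; limma adjusted p = 0.0900) and the thioredoxin gene Txn1 at -0.68 ± 0.21. Slc7a11 read below the median of all genes at 21 days, so the size of its difference is not well measured, and it rested on single P4_WT arrays. It was -1.33 without P4_WT replicate 1 (limma adjusted p = 0.0554) and -3.53 without P4_WT replicate 2 (limma adjusted p = 0.00244). The list's mean was 5.44 to 5.71 in P21_KO, 5.77 and 5.83 in P21_WT, and 6.03 and 6.10 in P4_WT.

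The last list held genes of the glucocorticoid response, since glucocorticoids are another inducer of metallothioneins. By age 4 of 15 rose past the threshold, against 0.757% of all genes, 12 of 15 were higher, and the median was 0.83. Cdkn1a, a cyclin-dependent kinase inhibitor gene that p53 also drives, rose by 1.60 ± 0.16 (SE), the clock gene Per1 by 1.82 ± 0.31, the transcription factor gene Klf9 by 1.39 ± 0.26 and the EGFR feedback inhibitor gene Errfi1 by 1.34 ± 0.21, with limma adjusted p of 0.0033 to 0.0428. The count was 1 without P21_WT replicate 1, P21_WT replicate 2 or P4_WT replicate 1, 2 without P4_WT replicate 2, P21_KO replicate 2 or P21_KO replicate 3, and 0 in a fit of the wild-type arrays by themselves or with the replicate block. The list's mean was 5.60 to 6.36 in P21_KO, 5.44 and 5.57 in P21_WT, and 4.64 and 4.88 in P4_WT. By genotype 13 of 15 were higher in P21_KO with a median of 0.43, against 0.01 over all genes. None was called, as was the case for all 22180 genes. Mt3 was chosen from this comparison, and a link to the metallothionein values was not tested.

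**Figure D5:**
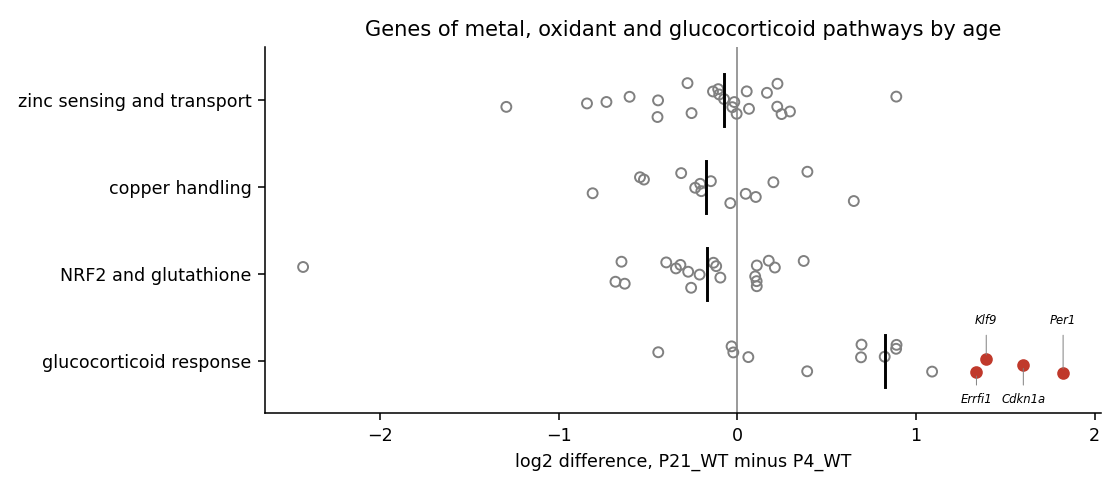
Log2 difference by age (P21_WT minus P4_WT) for the measured genes of 4 lists, with genes called by limma filled and named, other genes open, and the list's median as a vertical line. The medians lie at -0.07, -0.17 and -0.17 for the zinc, copper and NRF2 lists and at 0.83 for the glucocorticoid list.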

How the data were processed

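The authors deposited log2 readings. The submitters' processing notes name Affymetrix Expression Console and RMA, with no versions. Of 41345 probe sets, 23521 carry exactly 1 gene symbol in the platform annotation, and for each of 22180 genes the probe set with the highest mean was kept. RMA compresses differences near the floor, and the labels' amplification step adds spread that cannot be told apart from that between animals. Group means of the 3 groups were estimated from the 8 arrays together in limma 3.58.1 under R 4.3.3 (functions lmFit and eBayes, with 5 residual degrees of freedom), after a check on simulated data. P-values are two-sided and Benjamini-Hochberg adjusted over all genes, and a call is an adjusted p under 0.05. The labels call the arrays biological replicates. The number of arrays limits the precision, and whether the 3 P21_KO arrays with one label number are independent is not stated. If they are not, p-values are too small. The members, lists and tests were chosen with earlier results of these data known. Genes named are the members, Mtf1, Braf, the 3 nearest genes on each side of the cluster, the 5 genes with the highest Pearson r with each member among those spanning at least 1 log2 unit, and, from each metal, oxidant and glucocorticoid list, up to 4 called genes or the 2 with the smallest p. Marker lists are given as means and counts, a choice made once their values were known. Alternatives changed the arrays, prior, weights, normalization, filter, probe sets and blocks. Promoter letters were searched with Python 3.11.15. The other floxed gene is not reported here.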

Additional observations from a re-analysis of the deposited data

Results flagged for a closer look

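Of 68 group values of named genes and marker lists checked in P21_KO, 2 had a single array further from the other 3 than Dixon's 95% critical value for 4 arrays allows, and chance gives about 1 in 20. Bbs2, the neighbour of Mt4, read 6.22 in P21_KO replicate 1 against 5.94 to 5.97 in the other 3. Crlf3, a gene with a pattern like that of Mt2, read 6.22 in P21_KO replicate 2 against 5.93 to 5.97. None of the 4 metallothionein genes passed this limit, and the nearest was Mt3, with a gap of 0.698 of the range.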

How the results depend on the processing

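Over 18 alternatives the age rise of Mt3 kept its direction, at 1.50 to 1.60 with 1 array left out and up to 1.64 otherwise, and kept its call in 14 (limma adjusted p of 0.00848 to 0.0828). It lost the call, still at 1.55, with the wild-type arrays alone and with the replicate block (adjusted p = 0.0702), and at 1.51 and 1.59 without either P21_WT array. Deviations of the P4_WT and P21_WT arrays with the same replicate number correlated at -0.01, so no pairing showed there. The P21_KO arrays were not part of this check, and a single comparison cannot settle whether replicate numbers pair samples. The age difference of Mt1 was 0.20 to 0.48, that of Mt2 -0.17 to 0.50 and that of Mt4 -1.28 to 2.36, none called in any alternative. The genotype difference was 0.91 to 1.20 for Mt3, 0.14 to 0.43 for Mt2, -0.011 to 0.25 for Mt1 and -1.04 to 1.22 for Mt4, the -1.04 with the replicate block. Genes called by age numbered 357 in the fit reported, 674 at an adjusted p under 0.10, 49 with the wild-type arrays alone, 45 with the replicate block, and 119 to 338 with 1 array left out, the fewest without P21_WT replicate 2 (119), P21_WT replicate 1 (121) and P21_KO replicate 3 (233). By genotype 0 were called in the fit reported, 0 to 15 with 1 array left out, the 15 without P21_WT replicate 2, and 1 with the 3 P21_KO arrays that share a label number averaged, an alternative added after seeing the data. The count of glucocorticoid genes called by age, also followed afterwards, was 0 to 5. The fits without an array, with the wild-type arrays alone or with the replicate block have fewer residual degrees of freedom. The same is true of the fit with the arrays that share a label number averaged. For the other fits that lost calls, such as that of Bbs2 with the trended and robust prior (adjusted p = 0.129) or with dim genes left out (0.0582), the cause was not tested. A lone array left in a group is assumed to vary like the others.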

Other observations

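The other marker lists gave these counts by age in limma, over all genes. Of all genes, 0.852% were called as lower in P21_WT than in P4_WT. Hair shaft and inner root sheath markers had 3 of 13 called as lower, melanocyte markers 1 of 11 and fibroblast markers 1 of 11. Keratinocyte (14 measured), endothelial (12), macrophage, dendritic and T cell (14) and mast cell markers (10) had 0 called, against 1.61% of all genes. Lists this short with 0 calls are not set apart from all genes. Only 2 of 12 endothelial, 1 of 14 macrophage, dendritic and T cell and 0 of 10 mast cell markers read above the olfactory level on all arrays. For keratinocyte markers it was 13 of 14. The hair marker mean was 2.99 to 3.12 in P21_KO and 2.96 and 3.01 in P21_WT, against 5.54 and 3.95 in P4_WT, and the mast cell mean 2.24 to 2.46 in P21_KO and 2.33 and 2.48 in P21_WT, against 2.28 and 4.03 in P4_WT. Ngfr, the gene of the p75 protein that the sort selects against, read 4.76 to 5.62 in P21_KO, 5.52 and 4.94 in P21_WT, and 5.40 and 4.73 in P4_WT, above the olfactory level on every array.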
